A study of Rattus norvegicus with 4 samples.

Results

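The genes described here encode the machinery that carries proteins into mitochondria and folds them there. They were taken as every gene of the deposited table whose symbol begins with Tomm or Timm followed by a digit, together with Pam16, Dnajc19, Grpel1, Hspa9, Hspd1, Hspe1, Samm50, Mtx1, Mtx2, Pmpca, Pmpcb and Immt. The rule found 30 genes of 14137 gene identifiers. Expression was measured by RNA sequencing of total RNA from neonatal rat ventricular myocytes. These are heart muscle cells cultured from newborn rats, and such cultures also hold other cell types of the heart. One group of cultures was infected with lentivirus carrying a short hairpin RNA against Crat, which the sample labels call knockout, and the other group with lentivirus carrying a control hairpin, which the labels call wild type. All were harvested at day 5, and each group had 2 libraries. Crat is the gene for carnitine acetyltransferase, which passes acetyl units from coenzyme A to carnitine and back inside mitochondria. The comparison asks how import and folding genes differed once Crat was depleted.

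Most mitochondrial proteins are encoded in the nucleus, made in the cytosol and imported. The TOM complex of the outer membrane admits nearly all of them. The TIM23 complex then passes proteins with a cleavable presequence into the matrix, pulled by a motor built around the chaperone Hspa9, and the small Tim proteins hand carrier proteins to the TIM22 complex for insertion into the inner membrane. The SAM complex inserts barrel-shaped proteins into the outer membrane, a peptidase removes presequences, and the Hspd1 and Hspe1 chaperonin folds proteins in the matrix. Heart muscle cells are rich in mitochondria and rely on this supply for the respiratory chain.

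The deposited values are reads scaled to the library total (RPM) with no division by gene length, so levels were compared between groups and not between genes. Depth was very uneven: 321516 and 1622998 reads in Crat hairpin replicates 1 and 2, against 23680064 and 1321735 reads in control replicates 1 and 2. A single read was worth 3.11 RPM in Crat hairpin replicate 1, so low genes in that library rest on few reads. Crat itself had 24.9 and 19.7 RPM in the Crat hairpin libraries, against 148 and 156 RPM in the control libraries, and fell by 2.72 ± 0.19 on the log2 scale (SE, limma adjusted p = 7.3e-06). The markers of heart muscle cells, which were detected for 8 of 8 genes, summed to 10227 and 10765 RPM in the Crat hairpin libraries, against 22523 and 23069 RPM in the control libraries. Ryr2 among them was not called (-0.02 ± 0.10 on the log2 scale, limma adjusted p = 0.923). Of 6 fibroblast markers, all were detected, with sums of 12665 and 12679 RPM in the Crat hairpin libraries and 14826 and 15533 RPM in the control libraries. The collagens and Postn carry that sum, and single markers differed in direction: Pdgfra rose by 2.10 ± 0.11 and Dcn by 1.12 ± 0.14 on the log2 scale (limma adjusted p = 1.3e-06 and 4.77e-04), while Col1a2 fell by 0.63 ± 0.04 (limma adjusted p = 6.14e-06). The sums of the 6 smooth muscle and pericyte markers were 1848 and 1768 RPM in the Crat hairpin libraries, against 4987 and 5060 RPM in the control libraries, with Rgs5 at 0 in Crat hairpin replicate 1. Acta2 and Tagln carry that sum in the control libraries and were lower with the Crat hairpin. Pdgfrb went the other way (0.37 ± 0.07 on the log2 scale, limma adjusted p = 0.00571). The 4 endothelial markers in the table, of 6, summed to 52.9 and 57.9 RPM with the Crat hairpin, against 28.7 and 34.0 RPM with the control hairpin, and Cdh5 was at 0 in Crat hairpin replicate 1. Of the 4 only Kdr was called (1.31 ± 0.28 on the log2 scale, limma adjusted p = 0.00914). The 6 leukocyte markers summed to 28.0 and 34.5 RPM with the Crat hairpin, against 31.9 and 30.3 RPM with the control hairpin; Cd3e and Csf1r were at 0 in Crat hairpin replicate 1. The 13 genes of the mitochondrial genome took 3.64% and 3.62% of the reads in the Crat hairpin libraries, against 9.47% and 9.08% in the control libraries. The part of these shifts in the results on import genes was not tested, and in such mixed cultures fewer cells of a type and less RNA per cell cannot be told apart.

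Of the import and folding genes 1 rose and 1 fell, and their summed level in RPM differed little between the groups. The 30 genes summed to 2812 and 2621 RPM in the Crat hairpin libraries, against 2752 and 2706 RPM in the control libraries, a ratio of 0.995. Without Hspa9 and Hspd1, the members with the most reads, the ratio was 0.979. These ratios hold for RPM only. The median-of-ratios size factors were 1.079 and 1.076 in the Crat hairpin libraries, against 0.9395 and 0.9456 in the control libraries. Division by them lowers the Crat hairpin sums and raises the control sums. With that scaling the median member log2 fold change was -0.35, against -0.03 over all genes tested. Timm10, a small Tim chaperone, rose, and Tomm7, a small subunit of the TOM complex, fell. No other member passed the threshold of 0.05 on the limma p-value adjusted over all 12949 genes tested. That is 1 gene higher and 1 lower of 30, where 12.6% of all genes tested were called higher and 6.36% lower, or 19.0% in either direction. The limma p before adjustment was under 0.05 for 8 of the 30 members and for 4098 of the 12949 genes tested. The groups did not overlap for 23 members, 11 of them higher and 12 lower with the Crat hairpin. Among all genes tested 39.1% were higher without overlap and 21.7% were lower without overlap.

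**Figure D1:**
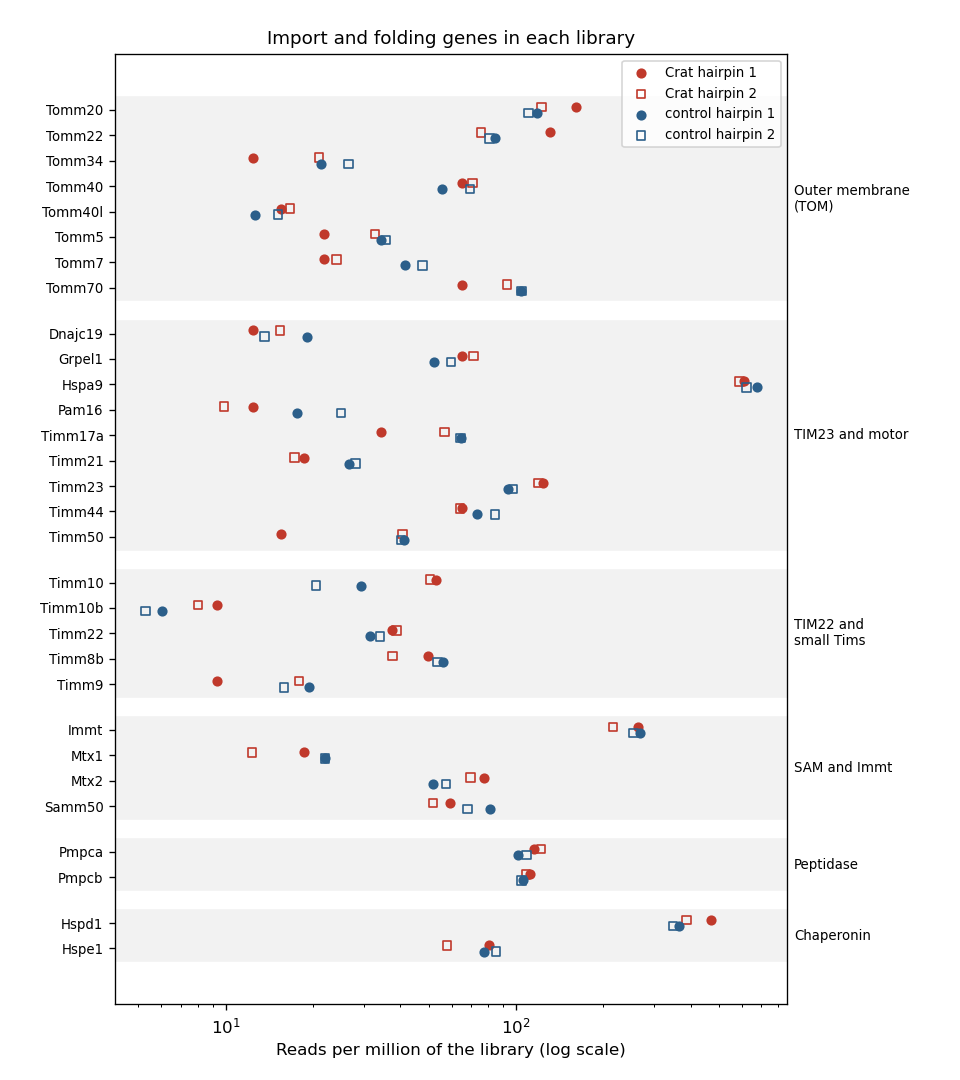
Level of each of the 30 import and folding genes in each library, in RPM on a log axis, with genes grouped by role. Each point is 1 library; Timm10 lies at 52.9 and 50.5 RPM in the Crat hairpin libraries, above 29.3 and 20.4 RPM in the control libraries, and Tomm7 lies below its control libraries.

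The median log2 fold change of the 30 members was -0.16, against 0.15 over all genes tested, a difference of -0.31. A log2 fold change here is the Crat hairpin minus the control hairpin on the log2(RPM + 1) scale. The members had 13 positive and 17 negative values, from -0.93 in Tomm7 to 1.05 in Timm10. The 74 nuclear genes listed for the respiratory chain had a median of -0.33 over the 72 tested. Of these, 0 were called higher and 27 lower. That list was taken by symbol, so it also holds ATP synthase genes, assembly factors such as Ndufaf1, and pseudogenes (Ndufa13-ps1 and Ndufv3-ps1). Most of the proteins it names use this import route. The 69 mitochondrial ribosomal protein genes, also imported, had a median of -0.15, with 0 called higher and 1 called lower. The 13 genes of the mitochondrial genome, which encode proteins made inside the organelle, were all called lower, with a median of -1.69.

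**Figure D2:**
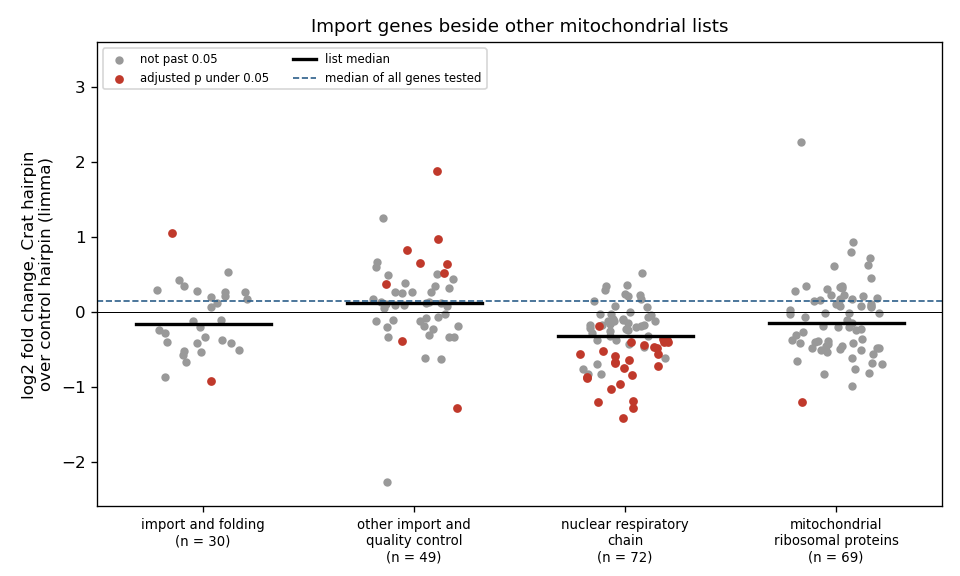
Log2 fold change (Crat hairpin minus control hairpin, limma on log2(RPM + 1)) of single genes in the import and folding genes, the other import and quality control genes, the nuclear respiratory chain and the mitochondrial ribosomal proteins. Bars are list medians, the dashed line is the median of all genes tested and red points passed an adjusted p of 0.05; the import and folding genes spread to both sides of 0 around a median of -0.16, and the respiratory chain has its 27 called genes below 0.

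The upstream 250 bases of the promoters of Timm10, of Tomm7 and of Hspe1 are printed here, the first pair because these were the genes called and the last because Hspe1 shares it with its partner Hspd1. They come from the RefSeq promoter table of build GRCr8, which matched 28 of the 30 members by symbol, and they run 5′ to 3′ toward the start of the gene. Capitals mark the ETS core (CCGGAAG or its complement) in Timm10, the NRF1 core (GCATGCGC, both strands overlapping) in Tomm7, and in Hspe1 a heat shock unit (GAANNTTC) that overlaps ETS cores on both strands. Timm10 lies at chr3:90314889-90315138, Tomm7 at chr4:12197253-12197502 and Hspe1 at chr9:64084077-64084326, all on the plus strand.
Timm10: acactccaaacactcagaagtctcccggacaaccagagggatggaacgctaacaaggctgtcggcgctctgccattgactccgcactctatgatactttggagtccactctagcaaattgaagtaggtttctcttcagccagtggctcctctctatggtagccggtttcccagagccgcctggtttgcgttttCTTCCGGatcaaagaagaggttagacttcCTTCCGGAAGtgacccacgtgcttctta
Tomm7: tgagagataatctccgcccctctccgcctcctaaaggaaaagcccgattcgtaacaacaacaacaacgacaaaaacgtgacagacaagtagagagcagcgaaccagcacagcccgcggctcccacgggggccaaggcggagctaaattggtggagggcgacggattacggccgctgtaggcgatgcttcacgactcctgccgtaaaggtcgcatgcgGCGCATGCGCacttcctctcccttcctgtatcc
Hspe1: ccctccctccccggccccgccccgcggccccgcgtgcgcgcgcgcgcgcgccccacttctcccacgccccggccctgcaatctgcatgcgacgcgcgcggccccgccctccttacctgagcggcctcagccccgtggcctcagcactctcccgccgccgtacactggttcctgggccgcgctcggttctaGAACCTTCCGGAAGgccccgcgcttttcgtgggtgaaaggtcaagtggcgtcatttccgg
The starts of Hspd1 and Hspe1 lie 290 bases apart on opposite strands, and their upstream windows share 211 bases.

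The 8 genes of the outer membrane entry route had 0 members called higher and 1 called lower, and their summed level was 495 and 457 RPM in the Crat hairpin libraries, against 473 and 490.3 RPM in the control libraries. Tomm7 (ENSRNOG00000043114) is a small subunit that shapes the assembly of the TOM complex and in human cells is needed to hold the kinase PINK1 at the outer membrane. It had 21.8 and 24.0 RPM in the Crat hairpin libraries, against 41.5 and 47.7 RPM in the control libraries. Both Crat hairpin libraries were below both control libraries. The log2 fold change was -0.93 ± 0.23 (SE, n = 2 each, 95% interval -1.45 to -0.41, limma adjusted p = 0.0211). These levels rest on 7 and 39 reads in the Crat hairpin libraries, against 982 and 63 in the control libraries. Without control replicate 1 the limma adjusted p was 0.265, and without control replicate 2 it was 0.447; the log2 fold change stayed between -1.03 and -0.83 as single libraries were left out. Tomm7 fell in edgeR as well (-1.05, adjusted p = 3.85e-05), while DESeq2 gave an adjusted p of 0.0541.

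Tomm40 forms the import channel, and it had 65.3 and 70.9 RPM with the Crat hairpin, against 55.8 and 69.6 RPM with the control hairpin (log2 fold change 0.12 ± 0.18, 95% interval -0.28 to 0.53, limma adjusted p = 0.678). The groups overlapped. Its paralog Tomm40l had 15.6 and 16.6 RPM with the Crat hairpin, against 12.6 and 15.1 RPM with the control hairpin (0.20 ± 0.33, limma adjusted p = 0.713). Counted within each library, so that scaling drops out, Tomm7 had 0.333 and 0.339 reads per Tomm40 read in the Crat hairpin libraries, against 0.743 and 0.685 in the control libraries. In Crat hairpin replicate 1 this rests on 7 Tomm7 and 21 Tomm40 reads. Its exact 95% interval for counting error, 0.12 to 0.81, holds both control ratios. In Crat hairpin replicate 2 the interval was 0.23 to 0.49. No exact permutation test of 2 libraries against 2 can go below p = 0.333, so the read ratios given here carry no test.

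Tomm20, the receptor for presequences, was the TOM member with the most reads among those not called, with 162 and 123 RPM in the Crat hairpin libraries, against 118 and 110.5 RPM in the control libraries. The groups did not overlap, but the log2 fold change of 0.30 ± 0.15 did not pass (limma adjusted p = 0.223), and it was -0.04 in edgeR. Tomm70 is the receptor that binds carrier precursors delivered by cytosolic chaperones and in human cells also takes part in antiviral signalling with MAVS. It had 65.3 and 93.0 RPM in the Crat hairpin libraries, against 104 and 104 RPM in the control libraries, a log2 fold change of -0.42 ± 0.18 (limma adjusted p = 0.153; edgeR adjusted p = 0.00592). Both Crat hairpin libraries lay below the controls, replicate 1 farther than replicate 2. Per Tomm20 read there were 0.404 and 0.759 Tomm70 reads with the Crat hairpin, against 0.882 and 0.945 with the control hairpin. Tomm22, the receptor that organises the complex, had 131 RPM in Crat hairpin replicate 1 and 75.8 RPM in replicate 2, against 84.8 and 81.0 RPM in the control libraries, so its Crat hairpin libraries lay on either side of the controls. The small subunit Tomm5 had 21.8 and 32.7 RPM with the Crat hairpin, against 34.3 and 35.6 RPM with the control hairpin. For Tomm34, a cytosolic cochaperone of Hsp70 and Hsp90, the levels were 12.4 and 20.9 RPM with the Crat hairpin, against 21.2 and 26.5 RPM with the control hairpin. Neither was called by limma, with log2 fold changes of -0.38 ± 0.27 (adjusted p = 0.371) and -0.53 ± 0.34 (adjusted p = 0.325).

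In the TIM23 complex and its motor, limma called 0 of 9 members in either direction. Before adjustment 2 of the 9 were under 0.05, as were 4098 of the 12949 genes tested. By edgeR 5 of the 9 were called lower, where 15.9% of all genes tested were. In limma 7 of the 9 had negative log2 fold changes, with a median of -0.28. Their levels summed to 961 and 985 RPM in the Crat hairpin libraries, against 1065 and 1038 RPM in the control libraries. The channel protein Timm23 and its partner Timm17a pointed opposite ways. Timm23 had 124 and 119 RPM with the Crat hairpin, against 94.1 and 97.6 RPM with the control hairpin (0.34 ± 0.13, 95% interval 0.05 to 0.64, limma adjusted p = 0.104). Timm17a, a stress-sensitive subunit whose human protein is degraded by YME1L1, had 34.2 and 56.7 RPM with the Crat hairpin, against 64.7 and 64.3 RPM with the control hairpin (-0.54 ± 0.24, limma adjusted p = 0.162). Neither gene's groups overlapped, and 0.275 and 0.474 Timm17a reads were found per Timm23 read in the Crat hairpin libraries, against 0.687 and 0.659 in the control libraries. Both identifiers stand in the table under a further symbol as well, Timm17al1 and LOC100362432, so reads of near copies may be counted with them.

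**Figure D3:**
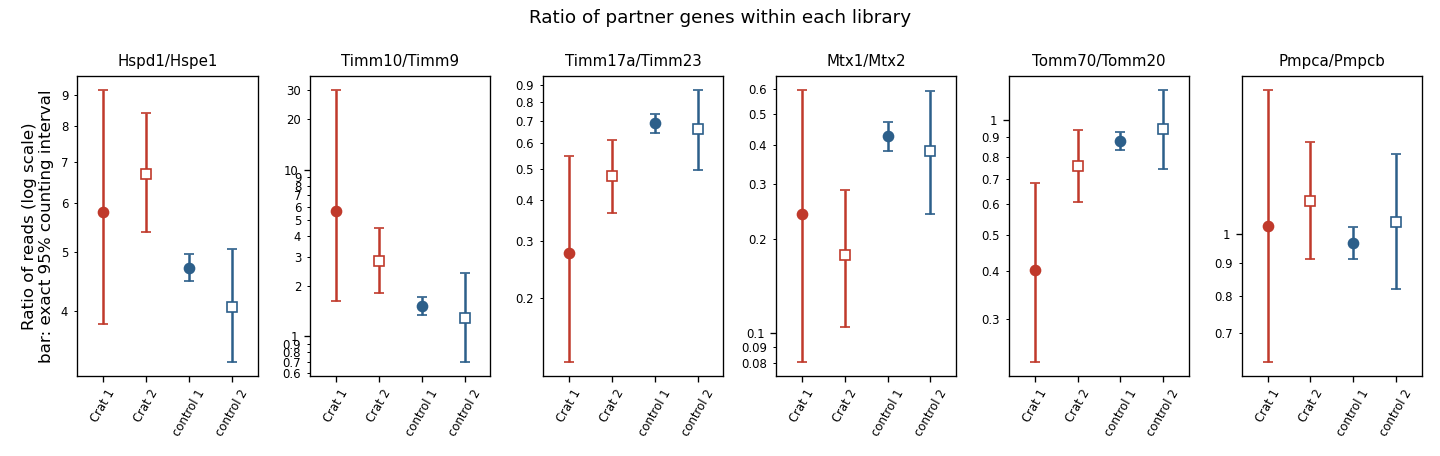
Reads of one import gene per read of a partner in the same library for 6 pairs, each on its own log axis, a measure that no scaling between libraries can move. Each point is 1 library with its exact 95% interval for counting error; Timm17a per Timm23 is 0.275 and 0.474 in the Crat hairpin libraries and 0.687 and 0.659 in the control libraries, while Pmpca per Pmpcb overlaps between the groups.

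The receptor Timm50, which meets precursors as they leave the TOM complex, had 15.6 RPM in Crat hairpin replicate 1 and 40.7 RPM in replicate 2, against 41.3 and 40.1 RPM in the control libraries. Only the shallowest library was low, and the log2 fold change of -0.67 ± 0.38 did not pass (limma adjusted p = 0.271). Timm21, which links the complex to the TOM complex and to respiratory chain assembly, had 18.7 and 17.3 RPM with the Crat hairpin, against 26.6 and 28.0 RPM with the control hairpin (-0.58 ± 0.27, limma adjusted p = 0.179). Timm44 tethers the motor to the channel and had 65.3 and 64.1 RPM with the Crat hairpin, against 73.3 and 84.7 RPM with the control hairpin (-0.28 ± 0.16, limma adjusted p = 0.279). Neither of these genes' groups overlapped, and edgeR called both lower, with adjusted p-values of 0.0109 and 0.0249.

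Hspa9, the matrix Hsp70 that drives the motor, had 613 and 590.3 RPM in the Crat hairpin libraries, against 676 and 625 RPM in the control libraries. The Crat hairpin libraries were both lower, by a log2 fold change of -0.11 ± 0.07 that limma did not call (adjusted p = 0.32). It is the member with the most reads, and the count tests called it lower, with -0.34 and an adjusted p of 4.69e-05 in edgeR. The authors' deposited table gives Hspa9 an adjusted p-value of 0.0246, the only member of 30 under 0.05 there. Of all 14137 identifiers, 1486 were under 0.05 in that column. The motor's nucleotide exchange factor Grpel1 leaned the other way, at 65.3 and 71.5 RPM with the Crat hairpin, against 52.4 and 59.8 RPM with the control hairpin (0.28 ± 0.17, limma adjusted p = 0.308). Per Hspa9 read there were 0.107 and 0.121 Grpel1 reads with the Crat hairpin, against 0.0775 and 0.0956 with the control hairpin. Pam16, a regulator of the motor, had 12.4 and 9.86 RPM with the Crat hairpin, against 17.7 and 25.0 RPM with the control hairpin (-0.87 ± 0.35, limma adjusted p = 0.119). Its groups did not overlap, although Crat hairpin replicate 1 holds only 4 of its reads. Dnajc19, the J-protein partner of Pam16 in the motor, whose loss in people causes a dilated cardiomyopathy with ataxia, had 12.4 and 15.4 RPM with the Crat hairpin, against 19.0 and 13.6 RPM with the control hairpin. Those groups overlapped (-0.21 ± 0.35, limma adjusted p = 0.727).

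Of the 5 genes of the TIM22 route, 1 was called higher and 0 lower, and the summed level was 159 and 153 RPM in the Crat hairpin libraries, against 142 and 129 RPM in the control libraries. Timm10 (ENSRNOG00000007883) encodes the small Tim that forms a chaperone ring with Timm9 and shields carrier proteins between the membranes. It had 52.9 and 50.5 RPM in the Crat hairpin libraries, against 29.3 and 20.4 RPM in the control libraries. Both Crat hairpin libraries stood above both control libraries. The log2 fold change was 1.05 ± 0.24 (SE, n = 2 each, 95% interval 0.50 to 1.60, limma adjusted p = 0.0150), and it was 0.66 in edgeR (adjusted p = 0.00506). The values rest on 17 and 82 reads with the Crat hairpin, against 693 and 27 reads with the control hairpin. Without control replicate 1 the log2 fold change was 1.30 with a limma adjusted p of 0.113, and without control replicate 2 it was 0.80 with an adjusted p of 0.329. DESeq2 gave 0.80 with an adjusted p of 0.190.

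Timm9, its ring partner, had 9.33 and 17.9 RPM with the Crat hairpin, against 19.3 and 15.9 RPM with the control hairpin, and the groups overlapped (-0.41 ± 0.39, limma adjusted p = 0.513). There were 5.67 and 2.83 Timm10 reads per Timm9 read in the Crat hairpin libraries, against 1.52 and 1.29 in the control libraries. The ratio in Crat hairpin replicate 1 rests on 3 Timm9 reads, with an exact 95% interval of 1.64 to 30.2 for counting error. Timm10b, the paralog that docks the ring onto the TIM22 complex, had 9.33 and 8.01 RPM with the Crat hairpin, against 6.04 and 5.30 RPM with the control hairpin (0.54 ± 0.46, limma adjusted p = 0.468). The inner membrane insertase Timm22 had 37.3 and 38.8 RPM with the Crat hairpin, against 31.4 and 34.0 RPM with the control hairpin (0.21 ± 0.22, limma adjusted p = 0.543). Timm8b, another small Tim, had 49.8 and 37.6 RPM with the Crat hairpin, against 56.1 and 53.7 RPM with the control hairpin. Its lower Crat hairpin levels gave -0.34 ± 0.21 in limma (adjusted p = 0.308) and -0.69 in edgeR (adjusted p = 0.00179). Timm17b, Timm13, Timm8a1, Timm29, Tomm6 and Tomm20l were not analysed here.

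**Figure D4:**
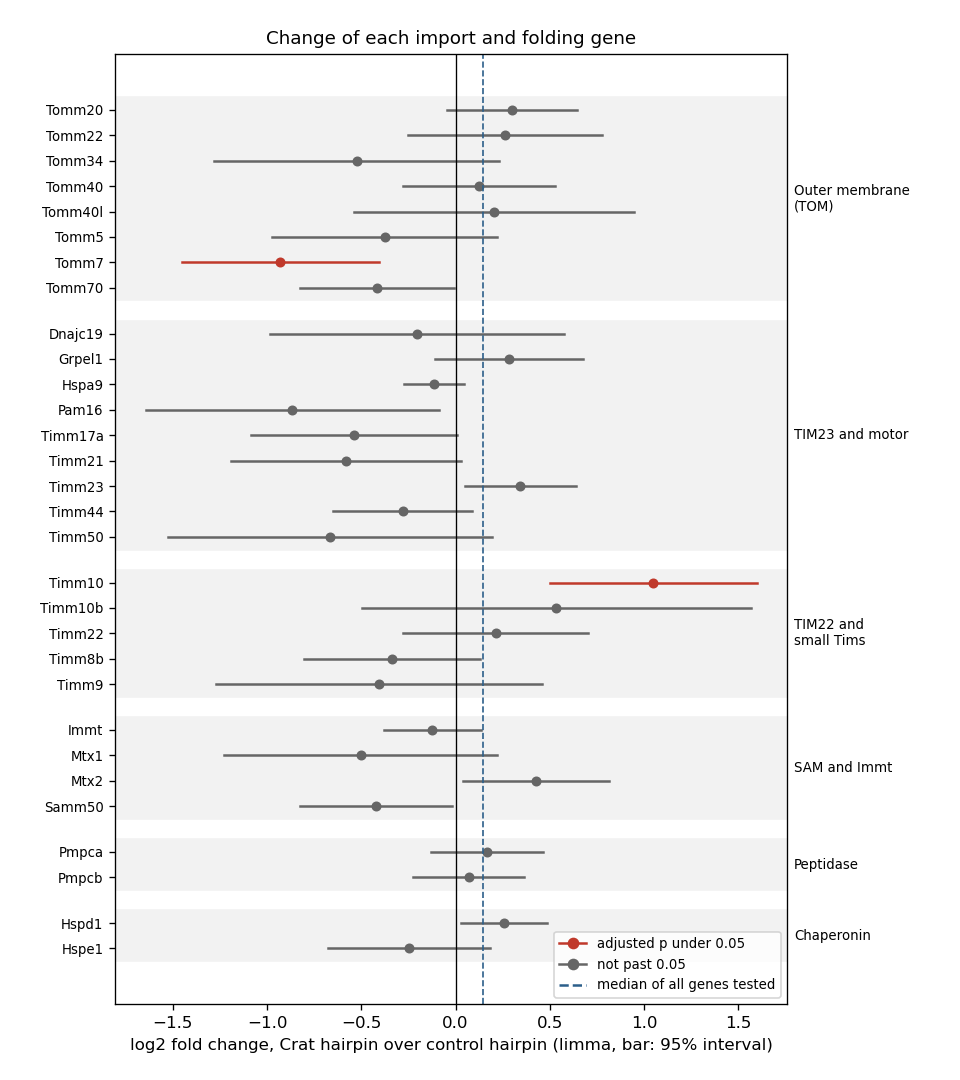
Log2 fold change (Crat hairpin minus control hairpin, limma on log2(RPM + 1)) of the 30 import and folding genes with 95% intervals, grouped by role. The interval of Timm10 runs from 0.50 to 1.60 and that of Tomm7 from -1.45 to -0.41, and these are the 2 genes past an adjusted p of 0.05.

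The outer membrane assembly genes and Immt gave 0 calls in limma among 4 members. Before adjustment 2 of the 4 were under 0.05, as were 4098 of the 12949 genes tested. By edgeR 3 of the 4 were called lower, where 15.9% of all genes tested were. Samm50, the protein that inserts barrels into the outer membrane, had 59.1 and 51.8 RPM with the Crat hairpin, against 81.2 and 68.1 RPM with the control hairpin. It had a log2 fold change of -0.42 ± 0.18 (limma adjusted p = 0.142) and -0.77 in edgeR (adjusted p = 3.20e-05). The metaxins, which work with Samm50, pointed opposite ways. Mtx1 had 18.7 and 12.3 RPM with the Crat hairpin, against 22.0 and 21.9 RPM with the control hairpin (-0.50 ± 0.32, limma adjusted p = 0.325), and Mtx2 had 77.8 and 69.6 RPM with the Crat hairpin, against 51.7 and 57.5 RPM with the control hairpin (0.43 ± 0.17, limma adjusted p = 0.123). Neither pair of groups overlapped, and 0.240 and 0.177 Mtx1 reads were counted per Mtx2 read with the Crat hairpin, against 0.425 and 0.382 with the control hairpin. Immt, the cristae junction protein that contacts the SAM complex, had 264 and 216 RPM with the Crat hairpin, against 267 and 254 RPM with the control hairpin. Those groups overlapped (-0.12 ± 0.11, limma adjusted p = 0.508), and edgeR called Immt lower (-0.42, adjusted p = 0.000187). With median-of-ratios scaling limma gave -0.31.

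Presequences are removed by a peptidase of a pair of subunits, and neither was called by limma or edgeR. Pmpca had 115 and 122 RPM with the Crat hairpin, against 102 and 109 RPM with the control hairpin (0.17 ± 0.13, 95% interval -0.13 to 0.46, limma adjusted p = 0.427). For Pmpcb the levels were 112 and 108 RPM with the Crat hairpin, against 106 and 104 RPM with the control hairpin (0.07 ± 0.13, 95% interval -0.23 to 0.36, limma adjusted p = 0.759). Their ratio was 1.03 and 1.13 with the Crat hairpin, against 0.966 and 1.04 with the control hairpin, and it overlapped between the groups. All other pairs counted here did not overlap. These include Tomm40l to Tomm40, at 0.238 and 0.235 with the Crat hairpin, against 0.226 and 0.217 with the control hairpin. How often ratios of other gene pairs separate was not tested, so a lack of overlap singles out no pair.

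The chaperonin genes, which share a promoter region, pointed opposite ways in limma, and neither was called. Hspd1, the chaperonin barrel, had 470 and 388 RPM in the Crat hairpin libraries, against 365 and 348 RPM in the control libraries (0.26 ± 0.10, 95% interval 0.03 to 0.49, limma adjusted p = 0.113). Hspe1, its lid, had 80.9 and 57.9 RPM in the Crat hairpin libraries, against 77.5 and 85.5 RPM in the control libraries (-0.25 ± 0.19, limma adjusted p = 0.418). The groups of Hspe1 overlapped and those of Hspd1 did not. In reads, there were 5.81 and 6.69 Hspd1 per Hspe1 with the Crat hairpin, against 4.71 and 4.07 with the control hairpin. With the median-of-ratios scaling the difference for Hspd1 was 0.07, and in edgeR it was -0.02, so the sign of the Hspd1 value depends on the method.

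The count of members called lower depended on the test. The table holds scaled values from which whole reads could be recovered, and edgeR on those reads called 1 member higher and 12 lower, where 13.7% of all genes were called higher and 15.9% lower. The 12 were Tomm7, Tomm70, Hspa9, Pam16, Timm17a, Timm21, Timm44, Timm8b, Immt, Mtx1, Samm50 and Hspe1, and voom with quality weights called the same 12 lower and 1 higher, against 14.9% and 16.3% of all genes. With 1 library left out, edgeR called 9 members lower without Crat hairpin replicate 1, where 13.9% of all genes were called lower, and 3 without Crat hairpin replicate 2 (Timm17a, Timm50 and Tomm70), where 6.59% were. It called 3 without control replicate 1 (Hspa9, Pam16 and Tomm7), against 8.53% of all genes, and 8 without control replicate 2, against 12.5%. Limma called 1 member higher and 7 lower without Crat hairpin replicate 1, against 20.1% and 10.3% of all genes. It called 6 higher and 7 lower without Crat hairpin replicate 2, counts near or under the background of 28.1% and 20.5% of all genes. No member was called by limma in either direction without control replicate 1, where 3.58% of all genes were called higher and 1.46% lower, or without control replicate 2, where 3.24% were called higher and 1.35% lower. With median-of-ratios scaling limma called 1 member higher and 4 lower, against 8.06% and 9.68% of all genes; the 4 were Tomm7, Tomm70, Samm50 and Hspa9. DESeq2 called 0 higher and 1 lower, Hspa9, against 6.27% and 7.26% of all genes. Median-of-ratios scaling moved the median of all genes by -0.18. Relative to that median the members stood at -0.31 in limma on RPM, -0.32 with median-of-ratios scaling and -0.37 in edgeR. In the same order the mitochondrial ribosomal protein genes stood at -0.30, -0.31 and -0.28, and the respiratory chain list at -0.47, -0.49 and -0.54. By edgeR 20.3% of the tested mitochondrial ribosomal protein genes and 73.6% of the tested respiratory chain list were called lower. The shift was thus not particular to the import genes.

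**Figure D5:**
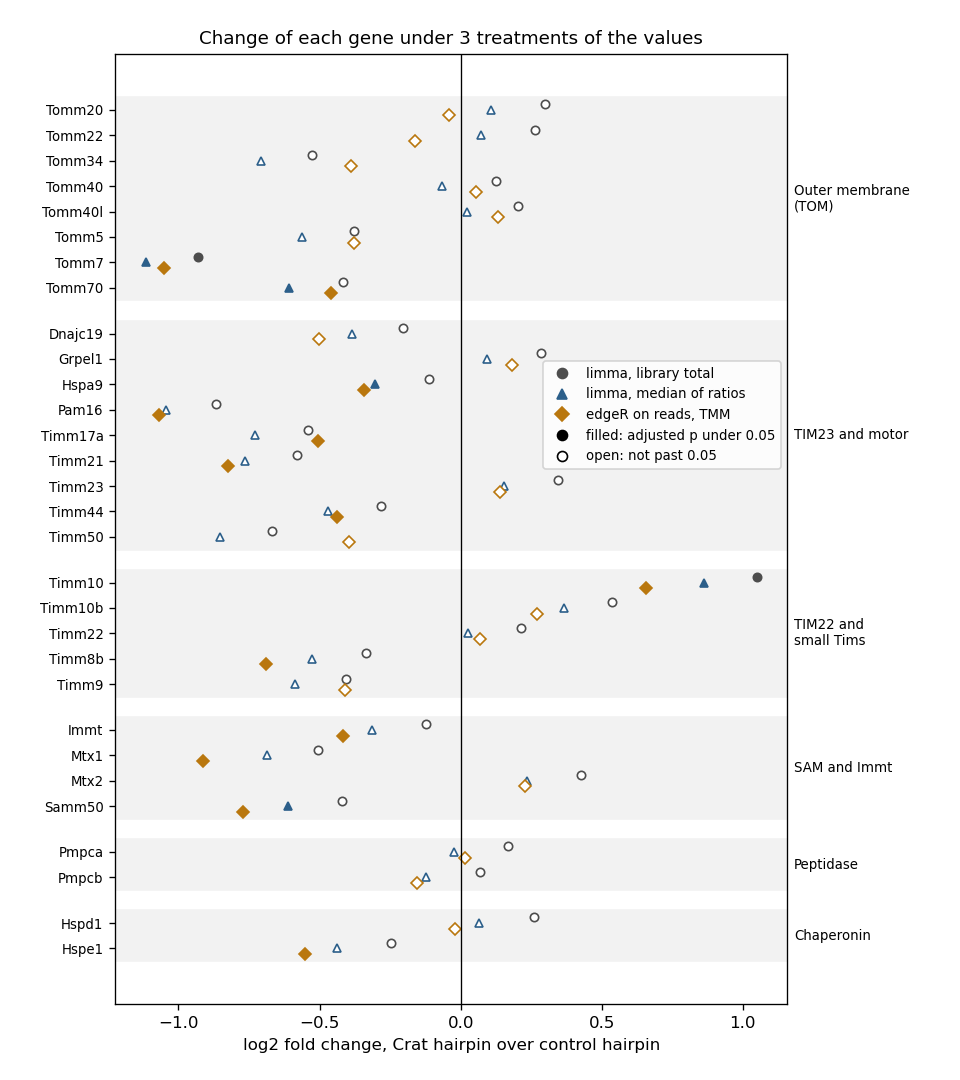
Log2 fold change (Crat hairpin minus control hairpin) of the 30 import and folding genes in limma on RPM, limma with median-of-ratios scaling and edgeR on whole reads, grouped by role. Filled points passed an adjusted p of 0.05; edgeR values lie lower than limma values for most genes, and Timm10 and Tomm7 are filled in all.

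The listed genes that receive, process or police imported proteins were counted next, 49 of them tested. Limma called 7 higher and 2 lower, which is 14.3% and 4.08% of the list, near the 12.6% and 6.36% of all genes. The median log2 fold change was 0.11, close to the 0.15 of all genes. Ddit3, the transcription factor CHOP of the stress responses that follow protein misfolding, had 99.5 and 137 RPM in the Crat hairpin libraries, against 34.1 and 28.0 RPM in the control libraries (1.89 ± 0.21, limma adjusted p = 2.0e-04). Its levels were far above the controls in both libraries. The other stress response factors of the list did not pass, with -0.11 for Atf4 and 0.05 for Atf5, and neither did the proteases and chaperones Lonp1 (-0.19), Clpp (0.11) and Trap1 (0.12).

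The other genes called higher by limma differ in place and role. Htra2, a protease of the intermembrane space, had 62.2 and 65.9 RPM with the Crat hairpin, against 31.9 and 32.5 RPM with the control hairpin (0.97 ± 0.19, limma adjusted p = 0.00683). Phb2, a prohibitin of the inner membrane, had 174 and 142 RPM with the Crat hairpin, against 95.9 and 81.7 RPM with the control hairpin (0.82 ± 0.15, limma adjusted p = 0.00472). Phb, the other prohibitin of the list, was not called by limma (-0.19 ± 0.13, adjusted p = 0.371). It was called lower by edgeR (-0.42, adjusted p = 0.0026). Afg3l2, a subunit of the matrix-facing protease of the inner membrane, had 152 and 156 RPM with the Crat hairpin, against 101 and 94.6 RPM with the control hairpin (0.65 ± 0.13, limma adjusted p = 0.00575). Htra2, Phb2 and Afg3l2 each had both Crat hairpin libraries above both controls. DESeq2 called none of these genes (adjusted p = 0.0881, 0.0639 and 0.149). Ghitm, an inner membrane protein, had 603 and 696 RPM with the Crat hairpin, against 412 and 417 RPM with the control hairpin (0.64 ± 0.08, limma adjusted p = 5.64e-04), and the insertase Oxa1l had 146 and 119 RPM with the Crat hairpin, against 97.1 and 87.8 RPM with the control hairpin (0.51 ± 0.15, limma adjusted p = 0.0395). Oxa1l was not called with median-of-ratios scaling (adjusted p = 0.183) or in edgeR (adjusted p = 0.316). The remaining gene called higher was Hsp90aa1, a cytosolic chaperone that delivers precursors to Tomm70, at 0.38 ± 0.07 (limma adjusted p = 0.00442). It was not called with median-of-ratios scaling (limma adjusted p = 0.105) or by DESeq2 (adjusted p = 0.1955), while edgeR called it higher (0.20, adjusted p = 0.0235).

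The genes of that list that fell were Yme1l1, for a protease of the inner membrane, and Romo1, for an inner membrane protein that in human cells is needed to import that protease. Romo1 had 9.33 and 12.9 RPM with the Crat hairpin, against 26.4 and 30.3 RPM with the control hairpin (-1.29 ± 0.32, limma adjusted p = 0.0197). Yme1l1 had 140.0 and 147 RPM with the Crat hairpin, against 186 and 191 RPM with the control hairpin (-0.39 ± 0.11, limma adjusted p = 0.0346). In both genes the Crat hairpin libraries were below the control libraries, and Romo1 rests on 3 reads in Crat hairpin replicate 1. Of the 9 genes called in this list, Ddit3 and Ghitm also passed when either control library was left out. The other 7 did not, with limma adjusted p-values for Htra2 of 0.170 without control replicate 1 and 0.175 without control replicate 2.

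The promoters of the members were searched on both strands for 4 short motifs. The ETS core was found in 13 of the 28 matched members (46.4%), among them Timm10, Hspe1, Hspd1, Timm23, Tomm20, Tomm70 and Grpel1, and in 7.27% of 33469 promoters of the table. Among genes tested here that have a promoter window, 15.4% carried it. Of the 13 members with the core, 10 had positive log2 fold changes, with a median of 0.26; of the 15 without it, 3 had positive values, with a median of -0.41. In edgeR these medians were -0.02 and -0.44. Hspd1, Tomm20, Tomm22 and Pmpcb, which carry the core, were positive in limma but -0.02, -0.04, -0.16 and -0.15 in edgeR. No member turned from negative to positive there, and Timm22, Tomm40 and Tomm40l, the positive members without the core, stayed positive. The 10 positive values therefore hold for limma on RPM only. Over all tested genes with a window the medians were 0.19 with the core and 0.14 without it in limma, and 65.3% and 59.0% of the values were positive. The members with the core also had more reads, with a median level of 91.8 RPM, against 33.7 RPM in those without it. The median share of G and C bases in the windows was 60% in members with the core and 53.6% in members without it. The NRF1 core was found in Tomm7 and Grpel1 (7.14% of members, 2.20% of promoters). A motif of the CHOP composite kind (TGATGNAA) was found in Hspa9, Timm22 and Tomm40l (10.7% of members, 3.40% of promoters), and the heat shock unit in Hspa9, Hspd1 and Hspe1 (10.7% of members, 7.23% of promoters). The heat shock unit at -237 to -230 of Hspd1 and at -60 to -53 of Hspe1 is the same site in the bases they share. Their ETS cores are likewise the same, so these sites were counted for both genes. All motif matches are of letters only and show no binding.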

How the data were processed

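RNA sequencing libraries of 4 rat cultures were compared, 2 with the Crat hairpin and 2 with the control hairpin, and the groups were taken from the labels. The submitters' processing notes name kallisto, DESeq2 and the rat build mRatBN7.2. The steps from transcripts to gene values are not given in the sources used here. A table of 14318 rows was deposited by the authors, holding 1 value for each library with the p-value before and after adjustment. Per the file headers its values are TPM, but all are whole multiples of 1 step per library, so the deposited signal is reads scaled to the library total (RPM). Whole reads were recovered for 100% of values, within 0.02 of a read. The 140 identifiers that stand on several rows were used once.

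Genes averaging at least 1 RPM (12949, all 30 members among them) were fitted as log2(RPM + 1) by limma 3.58.1 (R 4.3.3, variance trend, two-sided), with Benjamini-Hochberg adjustment and a threshold of 0.05. The design assumed TPM; the test was kept for RPM. edgeR 4.0.16 and DESeq2 1.42.0 were run on recovered reads. On simulated reads for this comparison, over 12949 genes, the fit called 6 of 67 genes changed 1.5-fold, 20 of 67 changed 2-fold, 43 of 66 changed 4-fold and 0 of 12749 unchanged ones. Far fewer genes were changed in that simulation than the 2454 that limma called here. The adjustment is stricter with fewer changed genes, so these shares are not the power of this comparison. Intervals of read ratios allow for counting error only. Whether libraries of 1 group stem from separate cultures is not stated in the labels, so p-values measure the spread between these libraries, which may be technical. A chi-square test of reads between the libraries of a group gave 1.29 per degree of freedom for the Crat hairpin pair and 1.47 for the control pair, so neither pair differed by less than the sampling noise.

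The members, lists, tests, motifs and pairs of genes for read ratios were chosen with earlier results of these data known. All members were named; those called, the member with the most reads among those not called in each role group, and paralog pairs got the value of every library, and other values were added after they were seen. Of the other import genes the 8 with the largest change past the threshold were to be named; Hsp90aa1 and the genes not called were added after their values were seen. Alternatives were other pseudocounts (0.5 and 5), filters, scalings, variance priors, count tests, thinning to the shallowest library, a replicate block and each library left out; edgeR with each library left out was added after seeing the data.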

Additional observations from a re-analysis of the deposited data

How the results depend on the processing

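Counts of calls depended on the test and on single libraries, and the cause was not tested unless fewer samples or reads show it. Members called higher were 1 on RPM and 0 without the variance trend, with DESeq2 and when thinned to 321516 reads; members called lower were 1 on RPM, 4 with median-of-ratios scaling, 12 with edgeR and with voom, and 0 without the trend and when thinned. With a library left out, in limma or edgeR, 0 to 6 members were called higher and 0 to 9 lower; limma called 6 higher and 7 lower without Crat hairpin replicate 2, and 0 and 0 without either control library. Other import genes called higher were 0 without the trend, 2 with DESeq2, 0 when thinned and 2 to 12 with a library left out; those called lower were 0, 9 (edgeR), 1 (DESeq2), 10 (voom), 0 when thinned and 0 to 8. All genes called higher were 1044 with median-of-ratios scaling, 266 without the trend, 749 with DESeq2, 103 when thinned and 419 to 3638 with a library left out; those called lower were 1254, 79, 2065 (edgeR), 1930 (voom), 63 when thinned and 175 to 2651.

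The median member log2 fold change was -0.35 with median-of-ratios scaling, -0.25 scaled without the mitochondrial genome, -0.38 with edgeR, -0.38 with DESeq2, -0.38 with voom, -0.070 when thinned, and -0.39 to -0.047 with a library left out. Timm10 was called in 14 and Tomm7 in 15 of 21 alternatives, with no change of sign. Both lost the call without the trend (limma adjusted p = 0.115 and 0.0925) and when thinned (0.531 and 0.213). Signs turned in these genes, none of them called there: Pmpcb (-0.12 median-of-ratios, -0.017 without the mitochondrial genome, -0.15 edgeR, -0.13 DESeq2, -0.15 voom, -0.059 thinned, -0.16 to 0.092 with a library left out), Tomm22 (-0.16 edgeR, -0.20 voom, -0.33 to 0.65), Hspd1 (-0.021 edgeR, -0.059 voom, -0.071 to 0.40), Tomm40 (-0.065 median-of-ratios, -0.027 DESeq2, -0.18 to 0.28), Tomm20 (-0.041 edgeR, -0.065 voom, -0.11 to 0.50), Pmpca (-0.024 median-of-ratios, -0.0023 DESeq2, -0.064 to 0.21), Mtx1 (0.12 thinned), and with a library left out Tomm40l (-0.069 to 0.33), Timm22 (-0.0061 to 0.27), Timm9 (-1.23 to 0.027), Immt (-0.46 to 0.022) and Dnajc19 (-0.78 to 0.023). Over single members and alternatives, 515 of 630 values kept direction and side of the threshold.

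Whether the replicate numbers pair the libraries is not stated in the labels. Deviations of same-numbered libraries correlated at 0.0061 over 12949 genes. That value cannot decide the question, because counting error in shallow libraries also lowers such a correlation. With the replicate block, 1 member was called higher and 1 lower, and 1701 genes were called higher and 895 lower. The 321516 reads of Crat hairpin replicate 1, 73.7-fold fewer than the deepest library, limit what low members can show.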
